A study of Eohaustorius estuarius with 16 samples.

Results

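Contig_130 and the 59 contigs that follow it most closely from array to array form a set of 60 contigs, out of 7574 contigs tested and 8507 on the array. They were measured in Eohaustorius estuarius, an amphipod crustacean that burrows in estuarine sand and is used to test sediments for toxicity. A contig here is an assembled transcript fragment known only by its number, so none of the 60 can be given a gene name, a role or a sequence, and several of them may be fragments of a single transcript. The members were the 60 contigs with the highest Pearson correlation (r) to contig_130 over all 16 arrays in the authors' deposited value table. Only contigs with at least 50% of their spots well above background, by the scanner software's own flag, on at least 8 arrays could enter. The members were thus chosen by measured values, the deposited log2 values of these same 16 arrays, so that r to contig_130 and the shared pattern are a description of the set and not a result about it.

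The arrays came from 8 control and 8 cyfluthrin extracts of whole-body total RNA. The controls had lived for 10 days in sediment spiked with solvent, and the others for 10 days in sediment spiked with cyfluthrin at a nominal 1.6 µg/kg. A single laboratory prepared the extracts and 6 laboratories ran arrays on them, of which laboratory B is covered here. The design text counts 8 amphipods in each group. Whether each extract came from 1 animal is not stated, nor is the sex, size or stage of the animals, and p-values therefore speak only of the spread between these samples.

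Cyfluthrin is a pyrethroid, an insecticide that keeps sodium channels of nerve cells from closing and so disturbs nerve firing in insects and crustaceans. A whole-body extract mixes the RNA of every tissue, and a transcript made in a single tissue weighs in it by the share of that tissue and by its activity there. In such bulk samples fewer cells of a type and less RNA per cell cannot be told apart. No cell type or tissue markers could be checked, because the contigs carry no names.

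All levels below are log2 processed signals relative to the array's own 75th percentile, so that a level of 0 equals the 75th percentile of the contig spots of that array. Levels of different contigs come from different probes and are not compared with each other. The 75th percentile was 614 ± 88.4 intensity units in control against 636 ± 111 in the cyfluthrin group (SD, n = 8 each). Spots well above background made up 86.9% ± 3.47 in control against 87.6% ± 5.0. The level of 5 spike-in probes was 0.93 ± 0.32 and 1.18 ± 0.36. None of these 3 measures differed between the groups beyond the spread between arrays (2-sided exact permutation p = 0.668, 0.751 and 0.2; adjusted p = 0.751, 0.751 and 0.6).

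Apart from cyfluthrin replicate 2, contig_130 was either high or very low, in both groups. In control replicates 1 to 8 its levels were 6.55, 5.54, 6.03, -3.60, -3.44, 6.96, 6.22 and 4.91. With cyfluthrin they were 6.77, 1.17, 3.90, -2.76, 4.27, 4.70, -3.05 and 4.03 in replicates 1 to 8. The levels of 4 arrays, control replicates 4 and 5 and cyfluthrin replicates 4 and 7, lay between -3.60 and -2.76. Cyfluthrin replicate 2 stood alone at 1.17, with a gap of 3.93 below it and of 2.73 above it, and the remaining 11 arrays ran from 3.90 to 6.96 with no gap over 0.63. The whole range was 10.56 on the log2 scale, 1514-fold, and it is a lower bound at the top, since the spots of contig_130 were saturated on control replicate 6 and cyfluthrin replicate 1. Both spots of the contig were read on every array and differed by a median SD of 0.018, and the contig was above background on all 16 arrays.

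The 6 contigs with the highest r to contig_130 were contig_3092 (r = 0.989), contig_2336 (0.987), contig_2785 (0.979), contig_2046 (0.976), contig_6134 (0.974) and contig_5067 (0.974). The control levels of contig_3092 were 5.88, 6.03, 6.46, -2.10, -2.30, 6.75, 6.05 and 5.74. Its levels with cyfluthrin were 6.68, 1.34, 4.43, -2.25, 4.93, 6.24, -3.08 and 4.32. The same 4 arrays were low and cyfluthrin replicate 2 again lay between, while the groups overlapped; the spot of contig_3092 was saturated on control replicate 3 and cyfluthrin replicate 1. In contig_2336 the 4 low arrays lay between -1.68 and -0.88, cyfluthrin replicate 2 at 0.49 and the other 11 arrays between 2.55 and 4.69. For contig_2785 the low arrays spanned -3.51 to -1.38, against 0.97 for cyfluthrin replicate 2 and 3.11 to 6.01 for the others. The order low, intermediate, high thus held for each of these probes with a gap on both sides of cyfluthrin replicate 2.

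Contig_2046 read -5.24 to -4.05 on the low arrays, -2.60 on cyfluthrin replicate 2 and -0.14 to 3.10 on the other 11. Contig_5067 read -2.90, -2.54 and -2.25 on control replicates 4 and 5 and cyfluthrin replicate 7, then -0.56 on cyfluthrin replicate 2 and 1.38 to 4.12 on the upper 11. Contig_6134 read -6.88 to -6.21, -3.84 and -2.50 to 1.29, and was above background on 12 of the 16 arrays. Its values on the 4 low arrays are therefore only bounds, and its fall there may be greater than the figures show.

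**Figure D1:**
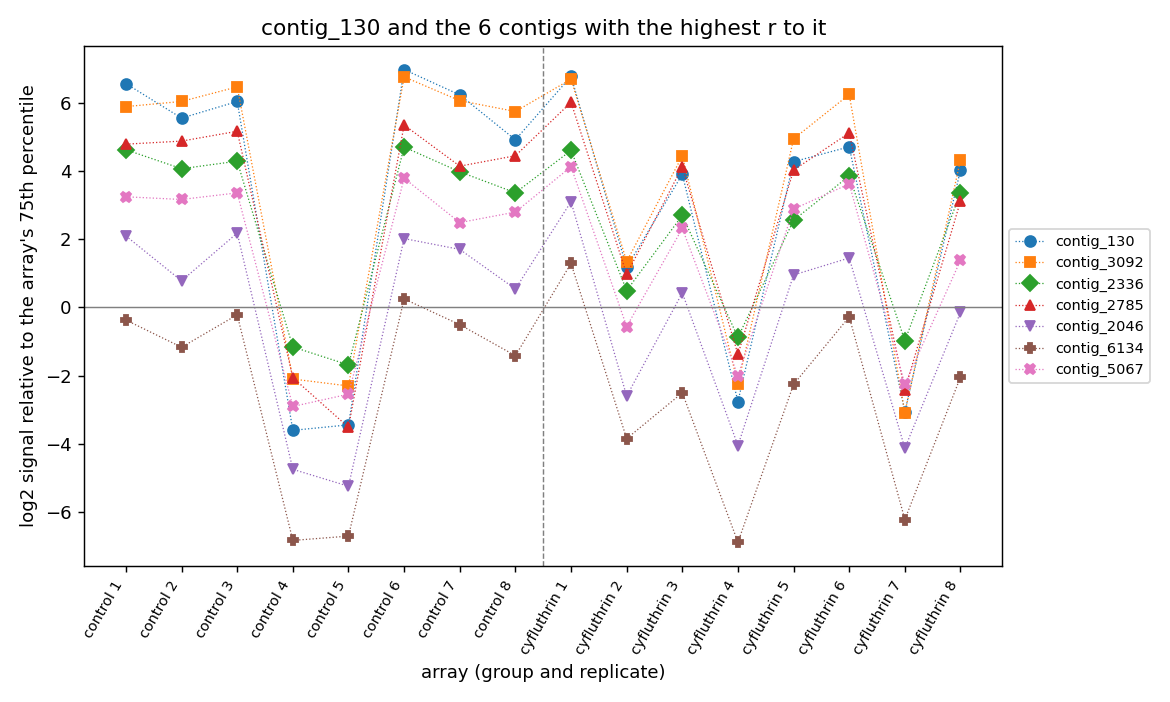
Levels of contig_130 and of the 6 contigs with the highest r to it on each of the 16 arrays, as log2 signal relative to the array's 75th percentile; each point is the mean of a contig's spots on an array, and the dotted lines only join the points of a contig. All 7 contigs dip on control replicates 4 and 5 and on cyfluthrin replicates 4 and 7, and cyfluthrin replicate 2 lies between; heights of different contigs are not comparable.

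The 4 low arrays were spread over both groups and both slides. The first 4 replicates of both groups were on slide 1 and the last 4 on slide 2, and each slide held 1 low control and 1 low cyfluthrin array. On slide 1 the controls were in row 2 and the cyfluthrin arrays in row 1, and on slide 2 the reverse. Within a slide, group and row therefore cannot be told apart. The array measures of the low arrays lay within those of the other 12 for 2 of the 3 quantities: 83.3% to 88.3% of spots above background against 80.6% to 95.4%, and spike-in levels of 0.97 to 1.16 against 0.17 to 1.90. The third, the 75th percentile, ran from 463 to 734 against 467 to 796, so that its lowest value was that of a low array, by a few units. The part of these measures in the members' pattern was not tested.

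Every one of the 60 members had its lowest level on one of these 4 arrays. Control replicate 4 was lowest for 25 members, control replicate 5 for 19, cyfluthrin replicate 7 for 11 and cyfluthrin replicate 4 for 5. In 54 of the 60 members all 4 arrays lay below the other 12, which was so for 76 of all 7574 tested contigs (1.0%); as the members were chosen for following contig_130, this count is a description. The 6 exceptions were contig_724, contig_154, contig_3255, contig_2144, contig_3511 and contig_5433. The 22 other tested contigs with the same split ranked from 61 to 212 by r to contig_130. In the opposite direction, with the 4 arrays above the other 12, there were 2 tested contigs, contig_3277 and contig_4204. The step from the highest of the 4 arrays to the lowest of the 12 had a median of 0.89 on the log2 scale over the members, with a range from -0.59 to 4.87, and exceeded 4-fold in 10 members and in 2 of the other tested contigs. Cyfluthrin replicate 2 was below all 11 upper arrays in 56 members, and between them and the 4 low arrays in 50. These counts, and those of the lowest array, also rest on the choice of the members and are descriptions.

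At the top, cyfluthrin replicate 1 was the highest array for 39 members, and control replicates 3 and 6 and cyfluthrin replicate 6 for 6 each. Cyfluthrin replicate 1 also had the highest spike-in level of all arrays, 1.90, and the lowest share of spots above background, 80.6%. Its 75th percentile, 637, lay within the range of the other arrays. Whether its high member levels go with these array measures was not tested. The members' summed signal made up 0.117% to 0.159% of the signal of all contigs on the 4 low arrays, 0.403% on cyfluthrin replicate 2 and 1.63% to 8.03% on the other 11. The share was thus above 1% on 6 control and 5 cyfluthrin arrays.

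**Figure D2:**
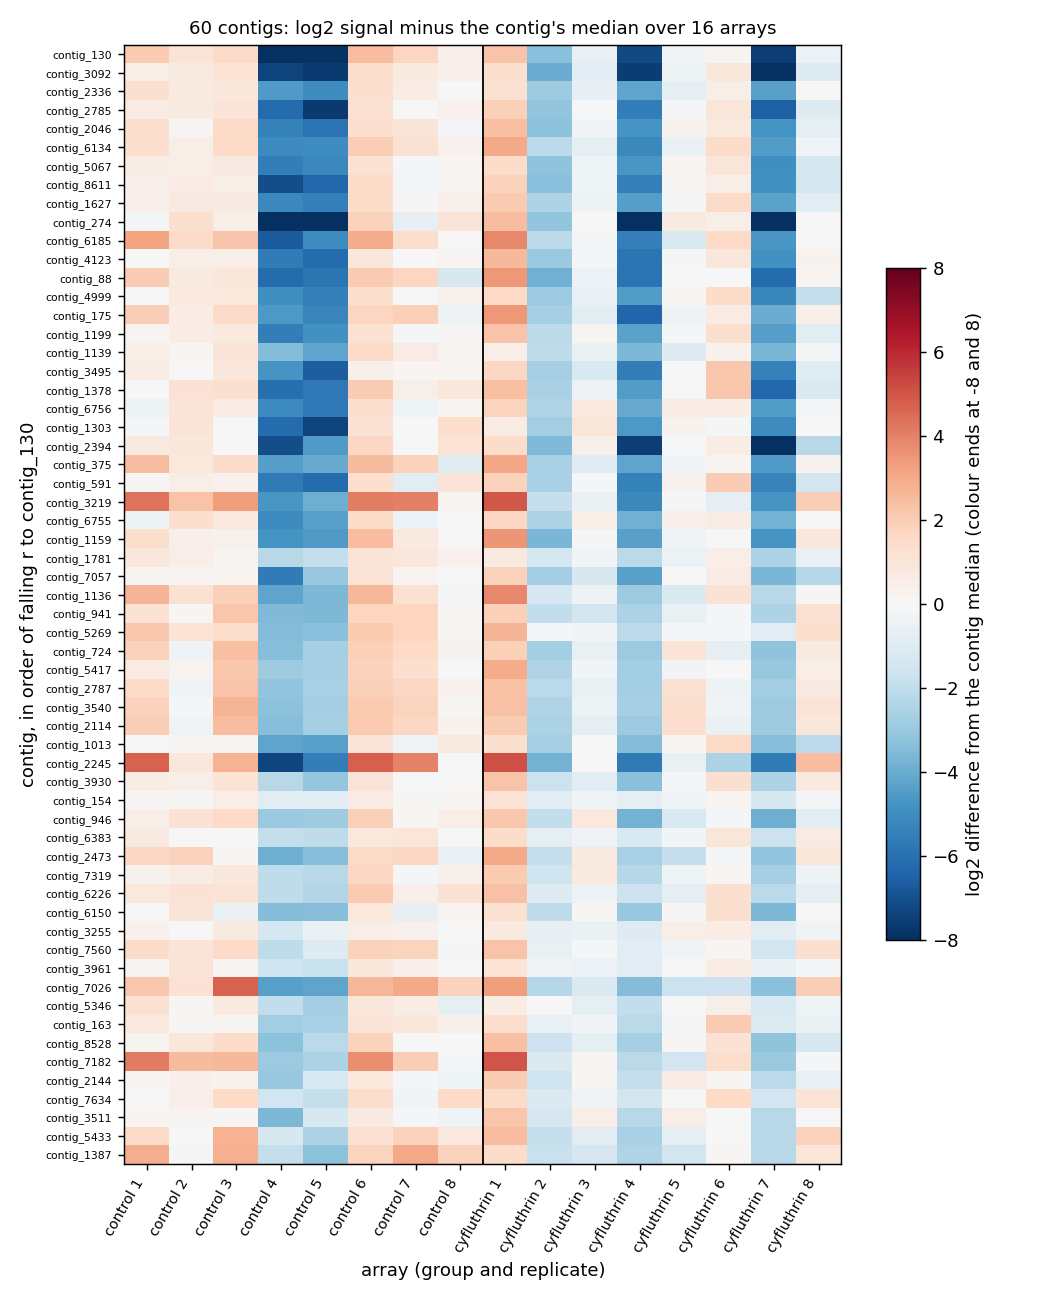
Levels of the 60 contigs (rows, in order of falling r to contig_130) on the 16 arrays (columns), as the log2 difference from the contig's median over the arrays; the colours end 8 units above and below it. Control replicates 4 and 5 and cyfluthrin replicates 4 and 7 are blue in most rows, cyfluthrin replicate 2 is pale blue, and cyfluthrin replicate 1 is the highest array for 39 of the 60.

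The members varied far more between arrays than contigs in general. Their range over the 16 arrays had a median of 6.80 on the log2 scale, 111-fold, and ran from 4.65-fold to 7546-fold, against a median of 2.52-fold over all tested contigs. A range over 100-fold was found in 31 members and in 83 of the 7574 tested contigs (1.1%), so 52 of the contigs with so wide a range were not members. Of the 100 tested contigs with the greatest SD over the arrays, 40 were members. The median SD was 2.21 in the members and 0.37 over all tested contigs. The same arrays chose the members, so this width is a description of them.

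The greatest SD was that of contig_274. It ranged from -7.30 to 4.98 in control, with a median of 3.35, and from -6.31 to 5.58 with cyfluthrin, with a median of 3.14. Its 4 low arrays lay between -7.30 and -4.92, cyfluthrin replicate 2 at -0.05, and the other 11 between 2.45 and 5.58. The contig was above background on 13 arrays, so that its 7546-fold range rests in part on low values that are bounds. Contig_2245 had the next greatest SD, from -7.40 to 4.75 in control and from -5.72 to 5.12 with cyfluthrin. Here the upper arrays did not form a plateau: they ran from -2.61 in cyfluthrin replicate 6 to 5.12 in cyfluthrin replicate 1, with cyfluthrin replicate 2 at -3.84.

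The smallest SDs were those of contig_154 and contig_3255. Contig_154 read 2.44 to 4.06 in control, with a median of 3.50, and 2.09 to 4.47 with cyfluthrin, with a median of 3.08, a 5.22-fold range over all arrays. Its 4 low arrays, at 2.09 to 2.57, enclosed cyfluthrin replicate 2 at 2.49 and lay close below the other 11, which began at 3.06. Contig_3255 read -0.67 to 1.46 in control and -0.24 to 1.55 with cyfluthrin, a 4.65-fold range. Its highest low array, at 0.25, lay just above its lowest upper array, at 0.24, and cyfluthrin replicate 2 read 0.12. Contig_154 thus kept an empty interval below the upper arrays, and contig_3255 did not.

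The members with the highest mean signal, which depends on the probe as well as on the transcript, were contig_1013 and contig_2394. Contig_1013 was above background on all arrays, at 0.33 to 1.27 on the 4 low arrays, 2.04 on cyfluthrin replicate 2 and 2.62 to 6.20 on the other 11. Contig_2394 read -2.99 to 0.78, 1.76 and 3.09 to 6.95 in the same order, and was saturated on control replicate 6 and cyfluthrin replicate 1. The lowest mean signals were those of contig_5346 and contig_1139. Contig_5346 read -6.61 to -5.15 on the low arrays and -4.65 to -2.72 on the upper 11, with cyfluthrin replicate 2 inside the latter at -3.89. Contig_1139 read -7.32 to -6.56, then -5.11 on cyfluthrin replicate 2 and -4.12 to -1.60 on the others. Contig_5346 was above background on 13 arrays and contig_1139 on 12, so that their lowest values are bounds.

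Of the 60 members, 35 were above background on all 16 arrays, and 25 were not; over all tested contigs 86.0% were above background throughout. In 23 of the 25 the arrays below background were among the 4 low ones, and 8 members were below background on all 4. The number of members above background was 36 on control replicate 4, 40 on control replicate 5, 49 on cyfluthrin replicate 4 and 48 on cyfluthrin replicate 7, 58 on cyfluthrin replicate 2 and 60 on the remaining arrays. Among the 35 members measured above background everywhere, the 4 low arrays lay below the other 12 in 30, and the range had a median of 68.3-fold, exceeded 100-fold in 15 and reached 1514-fold in contig_130.

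The values of single spots agreed closely beside these ranges. There were 2 spots per array for 46 members and 11 spots for contig_6150 and contig_3961, while 12 members had 1 spot and hence no such check. For each member the SD between its spots, outlier spots left out, was taken on every array, and the median over the arrays was kept. This median SD was 0.052 on the log2 scale in the middle member and 0.16 in the highest. The SD on a single array can be greater. The SD between arrays was a median of 38.8 times the SD between spots in the 48 members with more than 1 spot, with a lowest ratio of 7.17, against a median of 5.72 in the 5588 tested contigs with more than 1 spot. In contig_6150, with 11 spots, the 4 low arrays read -6.40 to -5.82, cyfluthrin replicate 2 read -4.81 and the others -3.48 to -1.53. Contig_3961 read -3.42 to -2.15 on the low arrays, -1.86 on cyfluthrin replicate 2 and -2.07 to -0.50 on the others.

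The members differed in how steeply they followed contig_130. The slope of a member's level on that of contig_130 over the 16 arrays, in log2 units per log2 unit, ranged from 0.149 in contig_154 to 1.09 in contig_274, with a median of 0.505. It was above 1 in 1 member, from 0.5 to 1 in 29 and below 0.5 in 29. The median slope was 0.514 over the control arrays and 0.528 over the cyfluthrin arrays. Member by member, the slope was higher over the control arrays in 16 of 59, and this was not tested. The levels of contig_130 are limited by saturation at the top of its range, and those of the dim members by background at the bottom.

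Within each group of 8 arrays the members still followed contig_130, over arrays that had also served to choose them. The median r of the other 59 members was 0.965 over the control arrays, with a range from 0.834 to 0.998, and 0.933 over the cyfluthrin arrays, from 0.777 to 0.993. It was 0.955 over the arrays of slide 1 and 0.938 over those of slide 2. All tested contigs had a median r of 0.10 and -0.16 to contig_130 in the 2 groups. Each of these values contains 2 low arrays, which weigh heavily in it.

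Without the 4 low arrays the relation was weaker but did not vanish in most members. Over the 12 other arrays the median r of the 59 members was 0.810, with a range from 0.556 to 0.963. Over the 11 upper arrays, without cyfluthrin replicate 2 as well, it was 0.713, with a range from 0.029 to 0.919, while the middle 90% of all tested contigs lay between -0.597 and 0.544 with a median of -0.11. An r of at least 0.6 over these 11 arrays was found in 41 of the 59 members and in 284 of 7573 tested contigs (3.75%). These arrays had also entered the choice of members, so the count is no independent measure. Of the 60 contigs with the highest r over the 11 arrays, 19 were members.

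The closest follower over all arrays, contig_3092, had r = 0.855 over the 11 upper arrays, and contig_2336, contig_6134 and contig_2046 had 0.914, 0.869 and 0.853. Other members kept little of it. Contig_1303 had r = 0.948 over all arrays and 0.029 over the upper 11, contig_6150 had 0.883 and 0.109, contig_7634 had 0.846 and 0.212, and contig_6756 had 0.948 and 0.237. For these 4, the likeness to contig_130 rested on the low arrays and cyfluthrin replicate 2. Contig_274, whose range was the widest, had 0.392 over the upper arrays.

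**Figure D3:**
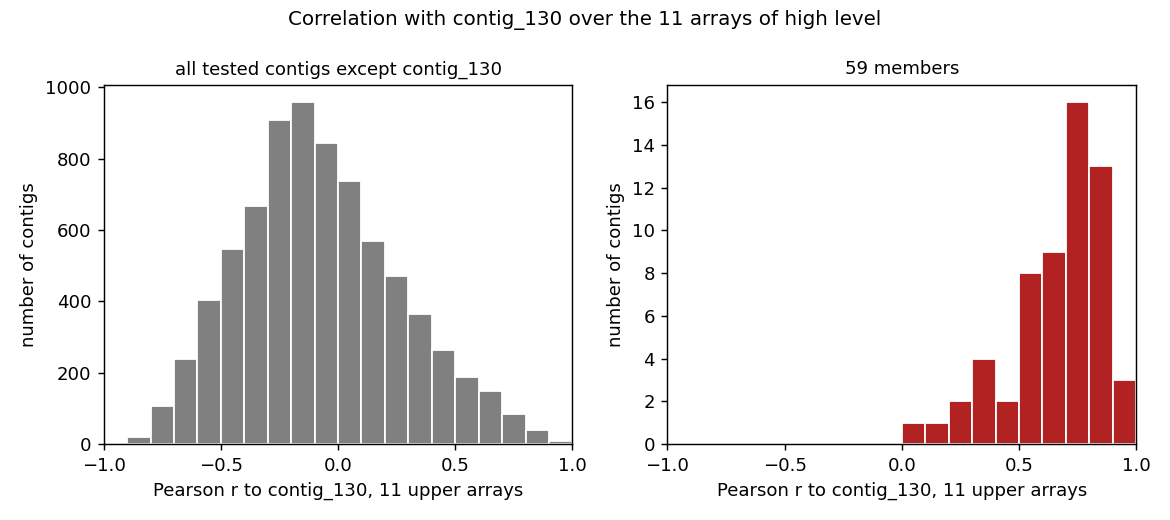
Number of contigs by Pearson r to contig_130 over the 11 upper arrays, in bins of 0.1, for all tested contigs except contig_130 (left, members included) and for the 59 other members (right). The members centre on 0.713 and all tested contigs on -0.11, and 4 members lie below 0.3.

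Among the 11 upper arrays the members did not all take the same order, and pairs of arrays within a group separated them. Cyfluthrin replicates 6 and 8 had similar levels of contig_130, 4.70 and 4.03. Replicate 8 was nevertheless above replicate 6 in 18 members and below it in 42, with differences from -3.58 in contig_1013 to 5.02 in contig_2245. The difference exceeded 1 log2 unit in 35 members, 12 higher and 23 lower in replicate 8, against 16.1% of all tested contigs. Over all tested contigs, 64.2% were higher in replicate 8. After normexp background correction 29 members were higher in replicate 8, and 16 to 17 with median, quantile or the authors' scaling.

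In control, the levels of contig_130 in replicates 1 and 8 were 6.55 and 4.91. Replicate 1 was above replicate 8 in 44 members and below it in 16, with differences from -1.54 to 4.77, and was above it in 62.0% of all tested contigs. Of the 18 members higher in cyfluthrin replicate 8 than in replicate 6, 17 were higher in control replicate 1 than in replicate 8. Of the 42 members lower there, 27 were higher in control replicate 1 and 15 were lower. Over all tested contigs, the share higher in control replicate 1 was 69.0% among those higher in cyfluthrin replicate 8 and 49.4% among those lower there. The 2 differences had a correlation of 0.499 across the 60 members and of 0.218 across all tested contigs, which all share the same 4 arrays. Whether the members differ from other contigs in this was not tested. The pairs of arrays were picked after their values were seen.

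Contig_2245 was the extreme in both pairs, at 4.65 and -0.11 in control replicates 1 and 8 and at -2.61 and 2.41 in cyfluthrin replicates 6 and 8. Contig_1013 lay at the other end of the cyfluthrin pair, at 6.20 and 2.62, and read 4.70 and 5.39 in the control pair. Contig_2394 moved as contig_1013 did, from 5.91 in cyfluthrin replicate 6 to 3.09 in replicate 8. Over all pairs of members the median r between 2 members was 0.899 over the 16 arrays and 0.591 over the upper 11, where the lowest was -0.467 (1770 pairs).

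**Figure D4:**
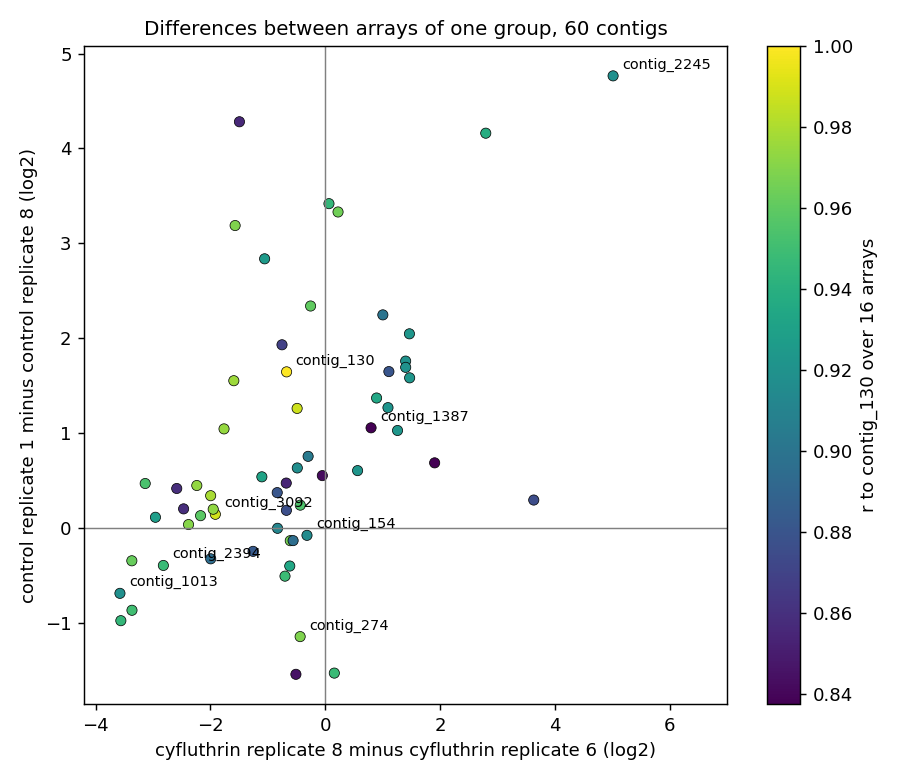
Difference between control replicates 1 and 8 against the difference between cyfluthrin replicates 8 and 6, in log2 units, for each of the 60 contigs; colour gives r to contig_130. The points spread from -3.58 to 5.02 on the horizontal axis, 18 lie right of 0, and contig_2245 is the extreme on both axes.

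The edge of the set was not a break. The last 2 members, contig_5433 and contig_1387, both had r = 0.838, and the next contigs, contig_6576 and contig_1420, had 0.834 and 0.833. Contig_5433 ranged from -4.04 to 1.25 in control, with a median of -0.52, and from -4.13 to 0.89 with cyfluthrin, with a median of -2.35. Contig_1387 ranged from -4.05 to 2.25 in control and from -3.21 to 0.65 with cyfluthrin, where its median was -2.21. Contig_6576, just outside, read -0.84 to -0.35 on the 4 low arrays, -0.33 on cyfluthrin replicate 2 and 0.68 to 2.43 on the others, with r = -0.24 over the upper 11. Contig_1420 read -3.74 to -2.10, -2.14 and -2.01 to 1.43 in that order.

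The contigs that ran opposite to contig_130 had narrow ranges. The most negative r over the authors' deposited values were -0.862 for contig_2208 and -0.857 for contig_7625. Over the scaled signals, in which the levels are given, r within the groups was weaker with cyfluthrin. It was -0.910 in control and -0.529 with cyfluthrin for contig_2208, and -0.787 and -0.332 for contig_7625. Contig_2208 read 2.64 to 2.94 on the 4 low arrays, 2.34 on cyfluthrin replicate 2 and 2.32 to 2.69 on the upper 11, a 1.53-fold range over all arrays. Contig_7625 read 1.84 to 2.16 on the low arrays and 1.60 to 2.05 on the upper 11, a 1.54-fold range. Its lowest array was cyfluthrin replicate 2, at 1.54. In neither contig did cyfluthrin replicate 2 lie between the low and the upper arrays. Over the 12 arrays other than the low ones, r was -0.067 for contig_2208 and 0.005 for contig_7625. Over all tested contigs, 27 had r below -0.7 and 127 above 0.7. The 27 had ranges of 1.32- to 3.71-fold with a median of 1.68-fold, and contig_3277 and contig_4204, which were higher on the 4 low arrays than on the other 12, had ranges of 1.97- and 1.48-fold. The 60 contigs that follow contig_3644, another contig taken as an index, shared 1 contig with the set, contig_7026, and contig_3644 itself had r = 0.520 to contig_130 and ranked 240.

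The group labels played no part in choosing the members, and no member passed the test of cyfluthrin against control. The members called were 0 of 60 (limma, adjusted p under 0.05 over all tested contigs), against 560 of 7574 tested contigs (7.39%), of which 283 were higher (3.74%) and 277 lower (3.66%). At an unadjusted p under 0.05 the counts were 0 of 60 members and 21.8% of tested contigs. The control and cyfluthrin values overlapped in all 60 members; they did not overlap in 1.91% of tested contigs. The lowest adjusted p of a member was 0.301, for contig_1387, with a control mean of 0.08 ± 2.40 against -1.63 ± 1.48 after cyfluthrin (SD, n = 8 each; limma log2 change -1.71, SE 0.92).

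The mean level of contig_130 was 3.65 ± 4.47 over the 8 control arrays against 2.38 ± 3.60 over the 8 cyfluthrin arrays (SD). The log2 change was -1.27 with an SE of 1.88 and a 95% interval from -5.24 to 2.70 (limma adjusted p = 0.786; 2-sided exact permutation p = 0.531). Within the slides, where the groups also lay in different rows, it was -1.36 on slide 1 and -1.18 on slide 2. It was -2.31 or -2.28 with control replicate 4 or 5 left out, -0.54 or -0.49 with cyfluthrin replicate 4 or 7 left out, -0.80 with control replicate 6 left out, and -1.90 without all 4 low arrays.

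The width of the intervals limits what the comparison can show. The SE of a member's log2 change had a median of 1.05 and ran from 0.32 to 2.14, against a median of 0.17 over all tested contigs. The median bounds of the members' 95% intervals were -2.92 and 1.59. In 3 members the interval lay within a 2-fold change in either direction, as in contig_154, from -0.95 to 0.39, and contig_3255, from -0.87 to 0.51. A 4-fold fall was outside the interval in 14 members.

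Most members had lower means with cyfluthrin, none past the test. The mean was lower in 54 members and higher in 6, against 48.8% lower over all tested contigs, and the median log2 change was -0.58, with a range from -1.98 to 0.21, against 0.01 over all tested contigs. As the members move together, these 60 differences are not independent of each other, and no p is attached to the count. The median depended on single arrays. With control replicate 4, 5, 3 or 6 left out it was -1.16, -1.14, -0.37 or -0.24. With cyfluthrin replicate 1, 4 or 7 left out it was -1.04, -0.18 or -0.14. Without the 4 low arrays the median was -0.91, with 0 members called (4.4% of tested contigs) and 7 at an unadjusted p under 0.05 (19.8% of tested contigs). After normexp background correction 38 members were lower, with a median of -0.19, while the median of all contigs lay at 0.27.

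**Figure D5:**
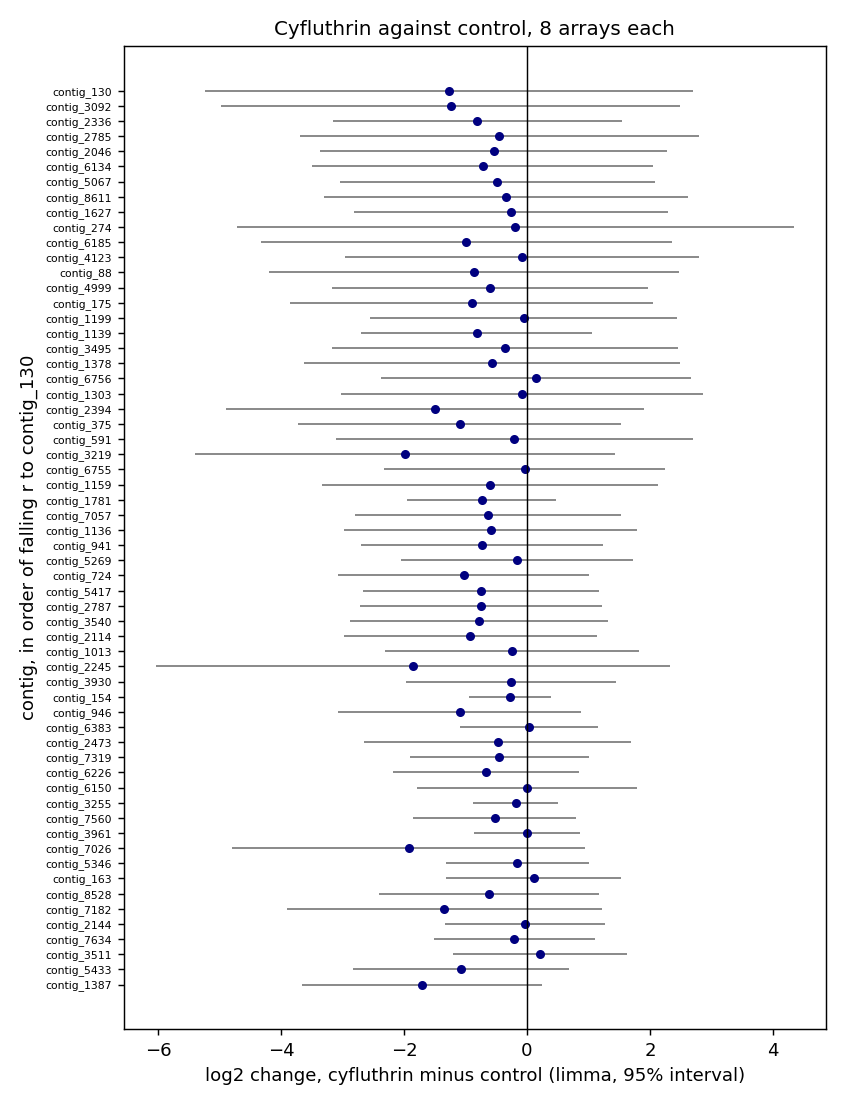
Log2 change, cyfluthrin minus control, of each of the 60 contigs with its 95% interval from the limma fit over 8 control and 8 cyfluthrin arrays, in order of falling r to contig_130. All 60 intervals include 0, and 54 of the points lie below it.

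The named members spanned this range. The log2 change of contig_3092 was -1.24 (SE 1.76), of contig_2336 -0.81 (SE 1.11) and of contig_2785 -0.45 (SE 1.53). Contig_2245 had -1.85 (SE 1.98) and contig_2394 -1.50 (SE 1.61). In contig_274 the difference was -0.19 with an SE of 2.14, and in contig_6150 and contig_3961, the members with 11 spots, it was 0.00 with SEs of 0.85 and 0.41. The highest value was 0.21, for contig_3511, chosen for this after its values were seen.

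The spread within a group was also compared, with no test. The SD was higher with cyfluthrin in 16 of 60 members and in 75.7% of all tested contigs. The median SD of the members was 2.45 in control and 2.14 with cyfluthrin, and each group holds 2 of the 4 low arrays.

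The slides and their rows gave no called member either. With cyfluthrin and control compared on slide 1 alone, 0 of 60 members were called (0.898% of tested contigs), and 0 on slide 2 alone (0.489%). Within a slide the groups lay in different rows, so that row and treatment cannot be told apart there. Between the slides, 0 members passed (limma, group as a covariate), as did 0 of all tested contigs, of which 2.4% had an unadjusted p under 0.05, with 0 members among them. Between row 1 and row 2, over both slides with group as a covariate, 0 members and 0 tested contigs passed (limma). At an unadjusted p under 0.05 there were 1.56% of tested contigs and 0 members. Each row held the controls of 1 slide and the cyfluthrin arrays of the other, so this fit does not compare rows within a slide.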

How the data were processed

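Each spot's processed signal is an intensity that was background-subtracted by Agilent Feature Extraction, per the file headers (version 10.7.1.1 there, 9.1 per the submitters' processing notes), and not normalized between arrays. The value table that the authors deposited holds log2 values; each of its columns was compared with quantile-normalized log2 signals whose probe medians over the arrays had been set to 0, and its direction is that of the signal, while the sources used here do not give the authors' steps. It left 0 columns without a sample. The table chose the members and, as an alternative, was tested.

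Elsewhere the log2 processed signal minus the array's 75th percentile over 15208 contig spots was used. Outlier spots were left out, saturated spots kept, and the spots of a contig averaged. The comparison of groups used limma 3.58.1 (R 4.3.3; lmFit, eBayes, 2-sided, Benjamini-Hochberg adjustment over 7574 contigs, threshold 0.05, no covariate), single values by exact permutation over 12870 choices of 8 arrays. Correlations other than the one that chose the members, and slopes, used the scaled signals. The fit was also run on simulated data with independent normal noise for each contig. Such data lack the split levels and the shared movement of the members, so the run does not check the members' intervals. Slides and rows came from the file headers.

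The members, the tests and the contigs named (the closest and last followers, those just outside, and extremes of spread, brightness, spot number, saturation and negative correlation) were chosen with earlier results of these data known. The arrays have no gene names, so no gene or marker list was applied. The number of arrays limits the precision.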

Additional observations from a re-analysis of the deposited data

Results flagged for a closer look

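The spike-in level of control replicate 3 was 0.17 relative to the array's 75th percentile, against 0.94 to 1.16 in the other 7 control arrays, and its gap to the nearest of them exceeded the limit for a single outlying value among 8. Among 52 sets of 8 values examined this was the only one so marked, where chance marks about 1 in 20. The level of contig_130 on that array was 6.03, within the range of the other high arrays.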

How the results depend on the processing

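No member was called under any alternative that was run: quantile, median, normexp or the authors' values, outlier spots kept, slide, row or replicate block, no filter, above background on all arrays, trended and robust eBayes, an adjusted p under 0.1, each array left out, or, added after seeing the data, the 4 low arrays left out. At the threshold of 0.05, calls ranged from 0 to 0 when leaving out 1 array, with lowest adjusted p of 0.0956 to 0.461 (limma). Without the 4 low arrays the lowest adjusted p was 0.0666, for contig_1387 (limma). The looser threshold of 0.1 was applied only with all 16 arrays. With the replicate block, 0 members were called and 1 had an unadjusted p under 0.05; the numbers did not pair the arrays, as same-numbered arrays had deviations correlated from -0.274 to 0.462 and 3 of 16 arrays correlated best with their own number.

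The membership changed more. Of the 60 contigs, 57 to 59 were kept with scaled or quantile values or without a filter, 57 with deviations from group means, 44 with normexp, 42 with Spearman's rho, 43 and 44 over the control or cyfluthrin arrays alone, 53 to 60 without 1 array, 35 where all arrays had to be above background (fewer contigs can enter) and 32 without the 4 low arrays.

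Some differences, none of them past the test, turned sign, with the cause not tested. With normexp, contig_6134 gave 0.014 against -0.72, contig_5346 0.50 against -0.16 and contig_1139 0.11 against -0.82. Quantile values and the authors' table gave -0.16 and -0.16 for contig_6150, -0.10 and -0.10 for contig_3961, 0.085 and 0.10 for contig_2208, and 0.028 and 0.037 for contig_7625. Median scaling gave -0.033 for contig_6150 and -0.032 for contig_3961, outlier spots kept -0.025 for contig_6150, and the 4 low arrays left out -0.048 and -0.32 for these contigs. Leaving out 1 array gave -1.37 to 0.24 for contig_2785 (-0.45 with all arrays), -1.14 to 0.007 for contig_5067 (-0.48 with all arrays), -0.034 to 0.37 for contig_6576, -0.56 to 0.22 for contig_1420, -1.41 to 0.85 for contig_274, -0.74 to 0.10 for contig_1013, -0.51 to 0.064 for contig_5346, -0.39 to 0.41 for contig_6150, -0.25 to 0.16 for contig_3961, -0.075 to 0.020 for contig_2208 and -0.076 to 0.0032 for contig_7625. Signals near background limit the low values of 25 members.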
